A study of Homo sapiens with 2 samples.

Results

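In a pool of OVCAR5 tumours, 3 populations tagged with hashtag HTO3 were set against 2 populations tagged with hashtag HTO4. All 5 were chosen for low levels of cytokine-response genes, and whether their tumours had met a cytokine is not known here. OVCAR5 is an established human carcinoma cell line, and a hashtag is an antibody-bound barcode that marks the tumour a cell came from. Cells carried hashtags in pairs. A barcode was given to the pair of its 2 highest hashtags among HTO2 to HTO9 where the second had at least 20 counts and at least 4 times the third, and it was kept with at least 500 genes and at most 20% mitochondrial unique molecular identifiers (UMIs, counted transcript molecules). The HTO3 side held 428 cells in the pairs HTO3+HTO5, HTO3+HTO7 and HTO3+HTO9, and the HTO4 side held 479 cells in the pairs HTO4+HTO6 and HTO4+HTO7. Together these were 907 cells of the 2994 passing cells with a pair, and the deposited matrix held 9083 barcodes in all. The populations were chosen from measured values, namely low interferon and TNFa response genes, and the contrast was described earlier by its interferon-stimulated genes, AGR2, hypoxia and cell cycle genes, so the values below are a description of these 5 populations.

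The pool held 13 tumours grown in NSG-B2m-/- mice, which are immunodeficient and lack beta-2-microglobulin, from OVCAR5 cells that carry an IFNg-sensing reporter, and CFP+ cells, named bystander cells in the labels, were sorted from the pool. The labels list an intratumoral injection of cytokine. A 6 h exposure to TNFa (10 ng/ml) is given for 3 tumours and a 6 h exposure to TNFa (10 ng/ml) plus IFNg (100 ng/ml) for 2. IFNg alone (100 ng/ml) is given for 24 h in 2 tumours and for 48 h in 1. The 5 tumours without cytokine were collected after 6 h (2), 24 h (2) or 48 h (1). The treatment field of the gene expression library names an unstimulated culture and that of the hashtag library names TNFa, which is at odds with this list. The sources used here do not tie a hashtag pair to a tumour or a condition. The populations are therefore no replicates of a known group, all came from 1 library, and no test between them was made. Levels are counts per 1000000 UMIs of a population (CPM), with exact Poisson 95% intervals that cover counting error only.

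Type I and type II interferons bind receptors on the cell surface and act through Janus kinases and the transcription factors they activate, and the genes they switch on restrict viruses, present antigen and amplify the signal. Many of these interferon-stimulated genes (ISGs) keep a low basal level in unexposed tumour cells. Secretory epithelial genes such as AGR2 and TFF2 belong to the mucin-producing programme of some carcinomas, and hypoxia genes are targets of the HIF factors, which are stabilised when oxygen is low.

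The HTO3 populations had 140, 139 and 149 cells with 1306049, 1357909 and 1342559 UMIs (HTO3+HTO5, HTO3+HTO7 and HTO3+HTO9), and the HTO4 populations had 201 and 278 cells with 2156610 and 2911673 UMIs (HTO4+HTO6 and HTO4+HTO7). Median UMIs per cell were 8018 to 9094 on the HTO3 side and 9237 to 9450 on the HTO4 side. The filter kept 32.8%, 28.3% and 30.1% of barcodes in the HTO3 populations and 48.1% and 58.2% in the HTO4 populations, and the median mitochondrial share over all barcodes was 25.8%, 28.1% and 25.9% against 20.6% and 18.2%. These shares did not overlap between the sides, so the design confounds them with every difference between the sides given below. Their part in those differences was not tested. The cells were epithelial on both sides, as 887 of 907 (97.8%) had at least 3 of 10 epithelial markers. Markers of fibroblasts were found at that number in 1 cell and those of macrophages or monocytes in 4 cells, and those of endothelial cells, neutrophils, T cells, B cells and erythroid cells in 0 cells. The fibroblast markers, of which LUM, FAP and THY1 were at 0, summed to 39.0 CPM in HTO3+HTO5, against 1.49 to 3.71 CPM in the other 4 populations, and those of macrophages or monocytes, with CD163 and MRC1 at 0, to 50.1 to 64.5 CPM in all 5.

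Summed MHC class II genes, which IFNg switches on through CIITA, were at 175, 173 and 220 CPM in the HTO3 populations and at 212 and 188 CPM in the HTO4 populations, against 389 to 5521 CPM in the other 8 populations of the library. Guanylate-binding protein, chemokine and transcription factor genes of the IFNg response summed to 1299, 1325 and 1398 CPM in the HTO3 populations and to 1523 and 1712 CPM in the HTO4 populations, and the other 8 ranged from 1665 to 27758 CPM. NF-kB and TNFa-response genes summed to 1798, 1320 and 1889 CPM in the HTO3 populations and to 1530 and 1664 CPM in the HTO4 populations, with 1578 to 12743 CPM in the other 8. For class II genes all 5 lay below the other 8 populations, while the other list sums reached the lowest of the other 8. Low levels of such genes served to choose the populations, so these sums describe the choice and do not support the name quiet.

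Over all genes the 2 sides were close. Of 7904 genes with at least 100 UMIs in the 5 populations, 17 (0.215%) were called, which means that the lowest population of one side was at least 1.5 times the highest of the other. Of these, 2 genes (0.0253%) were higher in every HTO3 population and 15 genes (0.19%) were lower. With at least 1000 genes and at most 10% mitochondrial UMIs per cell, 0 and 9 genes were called, of 2000 tested. With cells thinned to 1 depth, 0 of the 2 genes called higher and 6 of the 15 called lower were called again. Without the ratio of 1.5, 808 genes (10.2%) were higher in every HTO3 population and 1205 (15.2%) were lower. With 3 populations against 2, such an order also arises often without a difference between the sides, so these shares serve as a background. The median log2 ratio of HTO3 over HTO4, taken from the medians of each side with 1 CPM added, was -0.027 over the 7904 genes. Of these genes, 5% to 95% lay between -0.43 and 0.36. Between the populations of one side, the highest over the lowest level had a median of 1.29 among the 3 HTO3 populations and 1.10 among the 2 HTO4 populations, and 391 and 34 genes, in that order, differed by 2-fold or more. These spreads are not measured alike, since the HTO3 side held 3 populations with fewer UMIs each and the HTO4 side 2.

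The called genes were, by role, 4 interferon-stimulated genes (IFI6, XAF1 and SAMD9L among them) and the innate immune adaptor MYD88, 3 secretory genes (AGR2, TFF2 and TSPAN1), the keratin KRT81, and CALML4, IGFBP5, TPPP3, HPGD, MLF1 and RTKN, all lower in the HTO3 populations, and ADM and the long noncoding RNA AL713998.1, both higher. For 7 of the 17, among them IFI6, TSPAN1, IGFBP5, AGR2, CALML4 and XAF1, the counting intervals of the sides were also apart. The genes just inside the limit were ADM, with a nearest ratio of 1.504, and SAMD9L, with 1.52, and those just outside it were GXYLT1 at 1.47 and XRCC4 at 1.46 on the higher side and HIST1H1B at 1.48 and PLEKHA4, MX1 and PARP14 at 1.45 on the lower side.

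**Figure D1:**
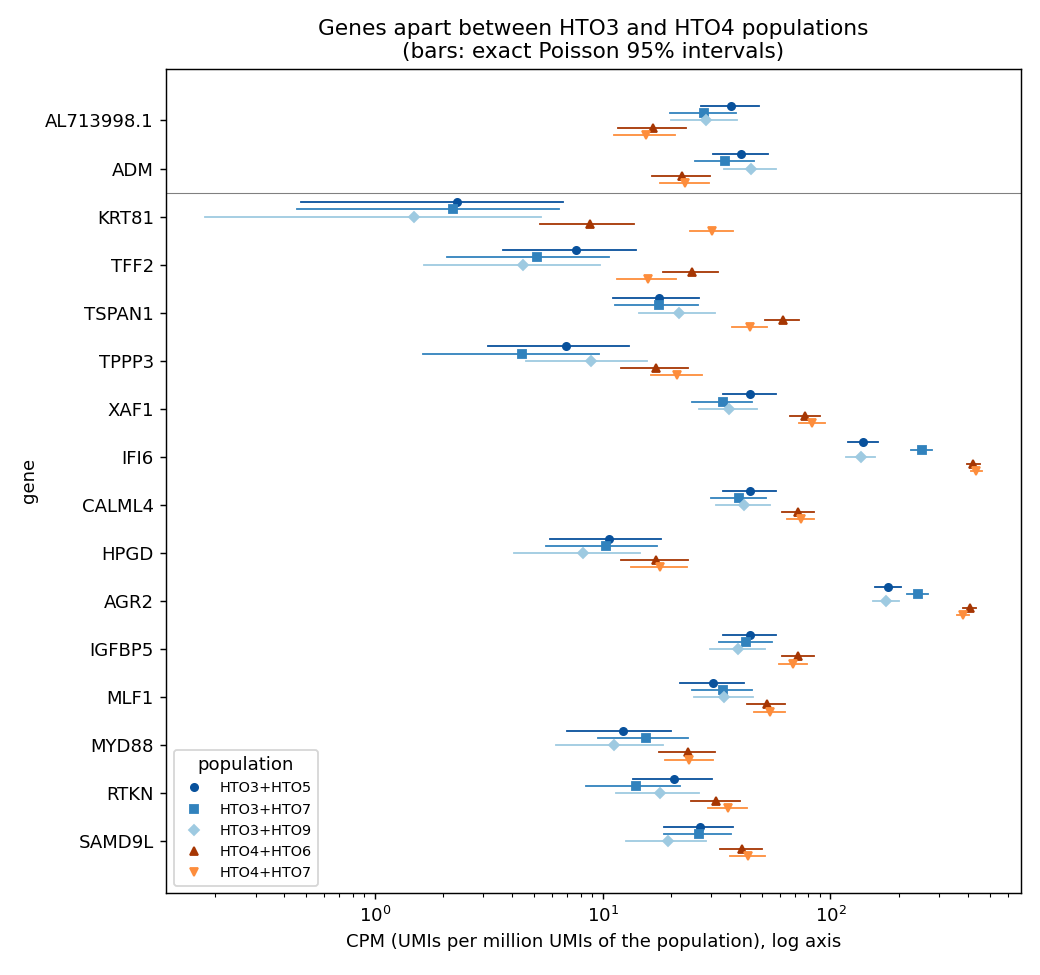
CPM on a log axis of called genes in the HTO3 populations (blue) and the HTO4 populations (orange), with exact Poisson 95% intervals as bars. AL713998.1 and ADM, above the line, lie to the right in the HTO3 populations, and the others lie to the left. The bars are widest for KRT81 and TFF2, which had few UMIs.

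Interferon-stimulated genes were the group that differed most widely. Of 54 listed genes, 50 passed the minimum of 100 UMIs, and 44 of these 50 (88.0%, against 15.2% of all genes tested) were lower in every HTO3 population than in either HTO4 population. The list's members had a median log2 ratio of -0.63, and 48 of 50 were below 0. Of the 50, 4 were called lower (against 0.19% of all genes). Counting intervals stood apart between the sides for 10 (against 0.418% of all genes lower in this way). The 6 members whose sides overlapped were OASL, PARP12, TRIM22, IFITM2, LGALS3BP and STAT2.

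The whole list summed to 10732, 12672 and 9792 CPM in the HTO3 populations and to 15913 and 17043 CPM in the HTO4 populations, a log2 ratio of -0.62. IFI27, an interferon-induced protein, made up the largest part of the sum with 2739, 3763 and 2448 CPM in the HTO3 populations and 5138 and 5046 CPM in the HTO4 populations. Without IFI27 the log2 ratio of the sum was -0.51, and without IFI27, LY6E and IFITM3, the 3 most abundant members, it was -0.65. The difference was thus not carried by the most abundant members.

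IFI6, an interferon-induced protein of mitochondria and the endoplasmic reticulum (chr1:27666061-27672218, GRCh38, minus strand), was at 139, 251 and 136 CPM in the HTO3 populations and at 424 and 436 CPM in the HTO4 populations. HTO3+HTO7 was the highest of the HTO3 populations and still lay below both HTO4 populations. The log2 ratio of the medians was -1.63, and HTO4+HTO6 exceeded HTO3+HTO7 by 1.69-fold (95% counting interval 1.49 to 1.92).

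IRF9, a DNA-binding factor of the type I interferon pathway, was at 48.2, 44.2 and 40.2 CPM in the HTO3 populations and at 71.4 and 69.7 CPM in the HTO4 populations. STAT2, which acts with IRF9, was at 16.1, 21.4 and 20.9 CPM in the HTO3 populations and at 16.2 and 17.5 CPM in the HTO4 populations. IRF9 was lower in every HTO3 population, and the sides overlapped for STAT2.

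XAF1, a pro-apoptotic antagonist of XIAP (chr17:6755447-6775647, plus strand), was at 44.4, 33.9 and 35.8 CPM in the HTO3 populations and at 77.4 and 83.1 CPM in the HTO4 populations, with a nearest ratio of 1.74 (1.29 to 2.39). SAMD9L, an antiviral protein that restricts translation (chr7:93130055-93148369, minus strand), was at 26.8, 26.5 and 19.4 CPM in the HTO3 populations and at 40.8 and 43.3 CPM in the HTO4 populations, with a nearest ratio of 1.52 (1.02 to 2.32). Both were low in all 3 HTO3 populations, and the counting intervals of the sides were apart for XAF1 but not for SAMD9L. MYD88, the adaptor of Toll-like and interleukin-1 receptors, was at 12.3, 15.5 and 11.2 CPM in the HTO3 populations and at 23.6 and 24.0 CPM in the HTO4 populations, and its nearest ratio of 1.53 had a counting interval of 0.90 to 2.68 that included equal levels.

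Other antiviral effectors lay on the same side without reaching the ratio of 1.5. ISG15, a ubiquitin-like modifier, was at 861, 1290 and 815 CPM in the HTO3 populations and at 1540 and 1899 CPM in the HTO4 populations. MX1, a GTPase that blocks influenza viruses, was at 164, 198 and 94.6 CPM in the HTO3 populations and at 287 and 389 CPM in the HTO4 populations. OAS1, a sensor of double-stranded RNA, was at 52.1, 68.5 and 43.9 CPM in the HTO3 populations and at 98.3 and 99.9 CPM in the HTO4 populations. BST2, which tethers budding virions, was at 388, 493 and 380 CPM in the HTO3 populations and at 587 and 607 CPM in the HTO4 populations. For these 4 genes HTO3+HTO7 was the highest HTO3 population, and counting intervals were apart between the sides. IFITM3, which blocks viral entry, differed little, with 1651, 1509 and 1563 CPM in the HTO3 populations and 1750 and 1896 CPM in the HTO4 populations.

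Within the sides the order was uneven. HTO3+HTO7 was the highest HTO3 population for 34 of the 50 tested members, HTO3+HTO9 was the lowest of all 5 populations for 29, and HTO4+HTO7 was the highest of all 5 for 40. IFIT1, an antiviral RNA-binding protein, ran from 27.6 CPM in HTO3+HTO9 to 72.9 CPM in HTO3+HTO7 within the HTO3 side, against 87.2 and 128 CPM in the HTO4 populations. RSAD2, which encodes viperin, was at 1.53, 14.7 and 4.47 CPM in the HTO3 populations and at 15.8 and 26.1 CPM in the HTO4 populations, so HTO3+HTO7 and HTO4+HTO6 nearly met.

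The promoters of 4 genes named above are shown because they carry the sequence that interferon-activated factors are known to bind. MYD88, 1 of the 4, is not in the ISG list. The motif searched was GAAA, any 2 bases and GAAA again, the core of the interferon-stimulated response element bound by IRF proteins, on both strands, and matches may overlap. Printed are the 250 bases before each RefSeq gene start on GRCh38.p14, from 5′ to 3′ on the strand of the gene, with matches in capitals. IFI6 lies at chr1:27672193-27672442 (minus strand) with 3 matches, ISG15 at chr1:1013247-1013496 (plus strand) with 2 overlapping matches, BST2 at chr19:17405631-17405880 (minus strand) with 2 overlapping matches, and MYD88 at chr3:38138411-38138660 (plus strand) with 1 match.
IFI6: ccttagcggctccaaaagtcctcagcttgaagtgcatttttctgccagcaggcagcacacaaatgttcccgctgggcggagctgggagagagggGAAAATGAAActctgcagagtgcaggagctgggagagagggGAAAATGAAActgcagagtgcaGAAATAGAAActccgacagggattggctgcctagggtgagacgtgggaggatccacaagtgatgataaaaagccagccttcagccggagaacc
ISG15: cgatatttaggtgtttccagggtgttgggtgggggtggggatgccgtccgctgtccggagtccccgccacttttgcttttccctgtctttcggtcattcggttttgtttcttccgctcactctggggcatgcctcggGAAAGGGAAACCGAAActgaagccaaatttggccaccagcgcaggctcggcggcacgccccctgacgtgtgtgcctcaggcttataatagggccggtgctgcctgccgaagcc
BST2: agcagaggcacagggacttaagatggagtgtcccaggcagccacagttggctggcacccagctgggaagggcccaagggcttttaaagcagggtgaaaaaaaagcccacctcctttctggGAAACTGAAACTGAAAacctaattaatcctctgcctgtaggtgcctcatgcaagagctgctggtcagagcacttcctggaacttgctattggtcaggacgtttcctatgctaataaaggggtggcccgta
MYD88: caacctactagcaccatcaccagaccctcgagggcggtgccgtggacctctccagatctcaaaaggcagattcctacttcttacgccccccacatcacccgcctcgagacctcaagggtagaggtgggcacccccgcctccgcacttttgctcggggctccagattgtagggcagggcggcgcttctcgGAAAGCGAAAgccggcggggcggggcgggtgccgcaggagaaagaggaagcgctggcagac

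In windows of 250 bases before to 50 bases after the start, 26 of the 38 tested ISGs with a promoter in the RefSeq table (68.4%) held a match, and so did 24 of 35 (68.6%) of those that were lower in every HTO3 population. Among all tested genes the share was 271 of 6401 (4.23%), and it was 1195 of 27305 (4.38%) among all genes with a RefSeq promoter. Of the 15 genes called lower, 11 had a promoter in the table, and 2 of these, IFI6 and MYD88, held a match. The windows of OAS1 and of XAF1 held 0 matches. A match describes the letters of a window and shows no binding.

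Antigen presentation by MHC class I, another interferon target, differed in the same direction and by less. The 19 class I and peptide loading genes summed to 8785, 9219 and 8949 CPM in the HTO3 populations and to 10703 and 10800 CPM in the HTO4 populations, a log2 ratio of -0.26. Of 18 tested members, 10 were lower in every HTO3 population (55.6%, against 15.2% of all genes), 1 (PDIA3) was higher, and 0 were called. B2M, the invariant chain that class I molecules need to reach the surface, was at 2871, 3202 and 2823 CPM in the HTO3 populations and at 3782 and 3934 CPM in the HTO4 populations, and its counting intervals were apart, as were those of HLA-B and HLA-C. In the guanylate-binding protein, chemokine and transcription factor list, 7 of 19 tested members were lower in every HTO3 population (36.8%), and 0 were called or had intervals apart.

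CXCL10, a chemokine induced by both IFNg and TNFa, was at 28.3, 21.4 and 29.8 CPM in the HTO3 populations and at 23.2 and 18.9 CPM in the HTO4 populations. CD74, the class II invariant chain, was at 75.04, 78.1 and 104 CPM in the HTO3 populations and at 95.5 and 83.8 CPM in the HTO4 populations. NFKBIA, the inhibitor that NF-kB induces, was at 178, 150 and 172 CPM in the HTO3 populations and at 159 and 221 CPM in the HTO4 populations. The sides overlapped for these 3 genes. Of 28 tested NF-kB and TNFa-response genes, 2 (BIRC2 and CXCL1; 7.14%, against 10.2% of all genes) were higher in every HTO3 population and 3 (NFKBIB, TNFAIP2 and LIF; 10.7%, against 15.2% of all genes) were lower, so both shares lay below those of all genes.

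**Figure D2:**
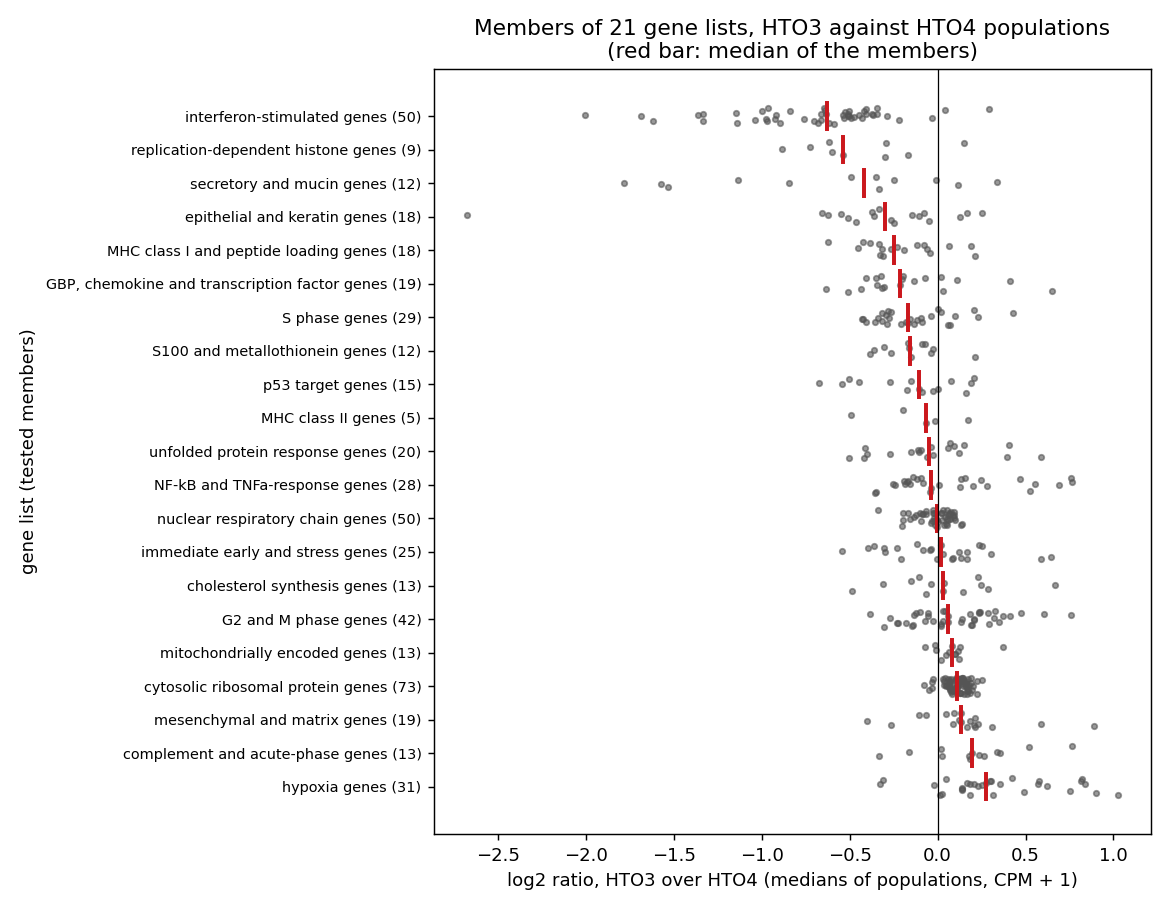
Log2 ratio of HTO3 over HTO4, from the medians of each side's populations with 1 CPM added, of each tested member (grey points) of 21 gene lists, with the number of members in brackets and their median as a red bar. The interferon-stimulated genes stand at the top with a median of -0.63, and the hypoxia genes at the bottom with 0.28.

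The ISG difference was seen per cell as well as in the sums. In cells thinned to 5345 UMIs each (119, 127 and 130 cells in the HTO3 populations and 180 and 260 in the HTO4 populations, with 91 shallower cells left out), the median cell had 52, 62 and 48.5 ISG UMIs in the HTO3 populations and 81 and 82 in the HTO4 populations. The 25th percentile of ISG UMIs per cell was 41, 37.5 and 34 in the HTO3 populations and at 51 and 54.75 in the HTO4 populations, so the lower end of the distribution was shifted as well. IFI6 had a UMI in 49.6%, 51.2% and 37.7% of thinned HTO3 cells and in 77.8% and 69.2% of thinned HTO4 cells; without thinning the shares were 53.6%, 65.5% and 51.0%, and 85.1% and 82.4%. The IFI6 shares did not overlap between the sides. No cell type without this gene was present in numbers, so the share that free RNA alone would give was not measured.

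**Figure D3:**
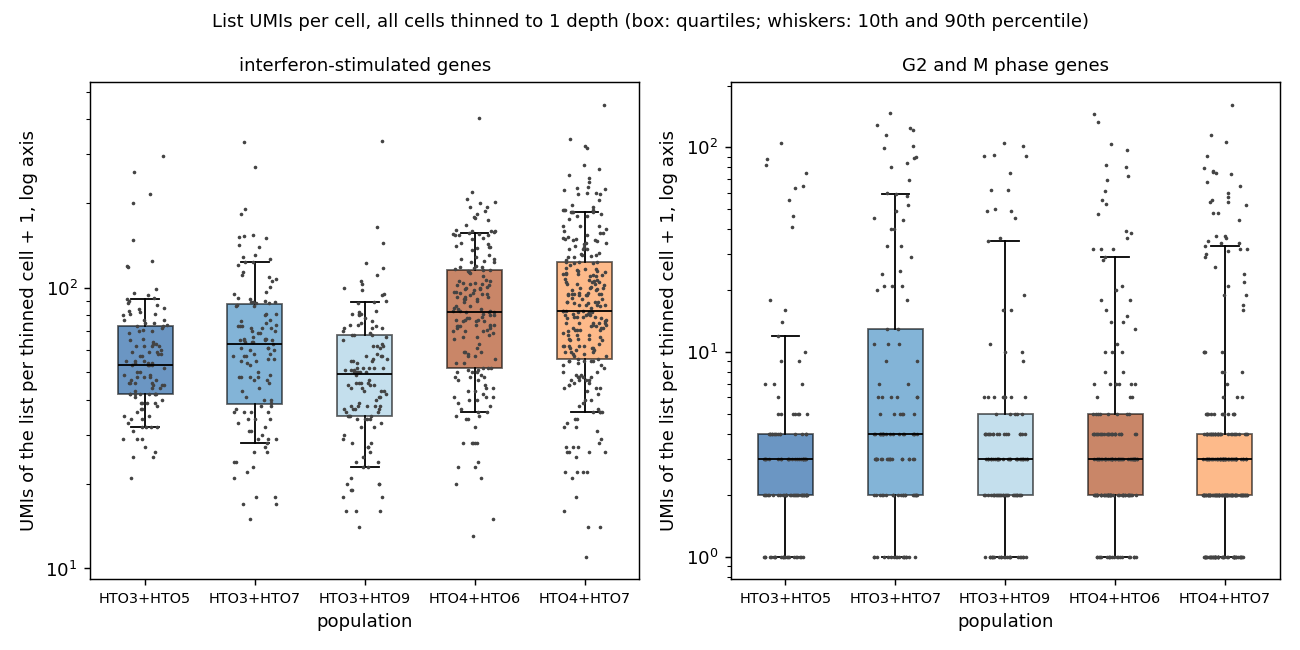
UMIs of the interferon-stimulated genes (left) and of the G2 and M phase genes (right) per cell plus 1, on a log axis, in cells thinned to 5345 UMIs, for the 3 HTO3 populations (blue) and the 2 HTO4 populations (orange). Boxes show quartiles, whiskers the 10th and 90th percentiles and points single cells. The ISG boxes of the HTO4 populations sit higher, with medians of 81 and 82 UMIs, while the G2 and M phase boxes overlap, apart from a taller one in HTO3+HTO7.

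Among all 13 populations of the library, HTO3+HTO9, HTO3+HTO5 and HTO3+HTO7 had the lowest ISG sums, in that order. HTO4+HTO6 ranked 4th from the lowest with 15913 CPM and HTO4+HTO7 ranked 7th with 17043 CPM, between the HTO2 populations HTO2+HTO5 (16476 CPM), HTO2+HTO6 (16825 CPM) and HTO2+HTO7 (17231 CPM). The fourth HTO3 population, HTO3+HTO6, was at 19730 CPM, so a low ISG level was not shared by all HTO3 populations. IFI6 was likewise at 607 CPM in HTO3+HTO6, the highest of the 13 populations. XAF1 and MX1 had their 3 lowest values of all 13 populations in the 3 HTO3 populations described here.

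Secretory genes were also lower in the HTO3 populations. Of 47 listed genes 12 passed the minimum, and 3 of these 12 were called lower (against 0.19% of all genes), while 8 (66.7%, against 15.2% of all genes) were lower and 1 (GALNT7) was higher in every HTO3 population. The list summed to 1924, 1714 and 1841 CPM in the HTO3 populations and to 2475 and 2326 CPM in the HTO4 populations, a log2 ratio of -0.38, which was -0.033 in cells with at least 1000 genes and at most 10% mitochondrial UMIs. LCN2, the siderophore-binding protein with most UMIs in the list, was at 810, 599 and 692 CPM in the HTO3 populations and at 884 and 860 CPM in the HTO4 populations.

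AGR2, a protein disulfide isomerase needed for mucin folding (chr7:16791811-16833433, minus strand), was at 179, 242 and 176 CPM in the HTO3 populations and at 408 and 382 CPM in the HTO4 populations. The log2 ratio was -1.14, and the nearest ratio, of HTO4+HTO7 over HTO3+HTO7, was 1.58 (1.40 to 1.79). The level rested in part on few cells, since 5 of 479 HTO4 cells held 528 of the 1992 AGR2 UMIs of that side (26.5%), against 141 of 798 UMIs in 5 of 428 HTO3 cells (17.7%). With the highest cell of each population left out, the nearest ratio was 1.48, below the limit. The share of thinned cells with an AGR2 UMI was 32.8%, 40.2% and 26.2% in the HTO3 populations and 38.9% and 43.5% in the HTO4 populations, and without thinning it was 45.7%, 53.2% and 39.6% in the HTO3 populations and 44.3% and 49.6% in the HTO4 populations, so the shares overlapped either way. In the rest of the library AGR2 was at 419 CPM in HTO3+HTO6 and at 45.1 and 28.7 CPM in HTO4+HTO8 and HTO4+HTO9, so its level did not follow HTO3 and HTO4 across all populations.

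TSPAN1, a tetraspanin of secretory epithelia (chr1:46175073-46185958, plus strand), was at 17.6, 17.7 and 21.6 CPM in the HTO3 populations and at 61.7 and 44.3 CPM in the HTO4 populations, with a nearest ratio of 2.05 (1.36 to 3.18). TFF2, a trefoil peptide secreted with mucins, was at 7.66, 5.15 and 4.47 CPM in the HTO3 populations and at 24.6 and 15.8 CPM in the HTO4 populations, and 5 HTO4 cells held 61 of its 99 UMIs on that side. TSPAN1 had 5.04%, 8.66% and 12.3% of thinned cells with a UMI in the HTO3 populations and 17.2% and 18.1% in the HTO4 populations, and without thinning 10.0%, 14.4% and 16.8% in the HTO3 populations and 24.9% and 27.0% in the HTO4 populations. The thinned TSPAN1 shares did not overlap as values, but their 95% intervals did (7.20% to 19.2% in HTO3+HTO9, against 12.01% to 23.5% in HTO4+HTO6), and the share that free RNA alone would give was not measured. TSPAN8, another tetraspanin, was at 8.42, 16.9 and 14.2 CPM in the HTO3 populations and at 64.0 and 24.0 CPM in the HTO4 populations, with 79 of the 208 HTO4 UMIs in 1 cell.

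Keratins and other epithelial genes were lower as well. The list of 32 genes summed to 6643, 6363 and 6021 CPM in the HTO3 populations and to 8337 and 7568 CPM in the HTO4 populations, a log2 ratio of -0.32. Both HTO4 sums, and that of HTO3+HTO5, lay above all other 8 populations (4331 to 6449 CPM). Of 18 tested members, 8 (44.4%, against 15.2% of all genes) were lower in every HTO3 population and 1 (PKP3) was higher. KRT19, a keratin of simple epithelia, was at 729, 668 and 650 CPM in the HTO3 populations and at 1132 and 928 CPM in the HTO4 populations, and its counting intervals were apart, as were those of KRT8 and KRT18. The called keratin, KRT81, a hair-type keratin, was at 2.30, 2.21 and 1.49 CPM in the HTO3 populations and at 8.81 and 30.2 CPM in the HTO4 populations, but 1 HTO4 cell held 81 of its 107 UMIs on that side, and with the highest cell of each population left out the nearest ratio was 1.21. KRT81 also overlaps KRT86, a close paralog on the opposite strand, and how far their UMIs are told apart was not tested.

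The other genes called lower have varied roles. IGFBP5, a secreted binding protein of insulin-like growth factors, was at 44.4, 42.7 and 39.5 CPM in the HTO3 populations and at 72.3 and 68.7 CPM in the HTO4 populations. CALML4, a calmodulin-like protein, was at 44.4, 39.8 and 41.7 CPM in the HTO3 populations and at 72.3 and 74.2 CPM in the HTO4 populations. Both had tight values within each side and counting intervals that were apart. MLF1 was at 30.6, 33.9 and 34.3 CPM in the HTO3 populations and at 52.4 and 54.3 CPM in the HTO4 populations. TPPP3, a tubulin-binding protein, RTKN and HPGD, which degrades prostaglandins, were each below 36 CPM in all 5 populations, with nearest ratios of 1.92, 1.53 and 1.601 whose counting intervals included equal levels.

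Several called genes overlap other genes, and UMIs of pairs on the same strand may not be told apart. CALML4 overlaps PIAS1, XAF1 overlaps PRAL, IFI6 overlaps AL445490.1 and IGFBP5 overlaps AC007563.2, all on opposite strands. On the same strand, CALML4 overlaps AC107871.1 and TPPP3 overlaps RNU1-123P.

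Hypoxia genes leaned the other way. ADM, which encodes the vasodilator adrenomedullin (chr11:10304680-10307397, plus strand), was at 40.6, 34.6 and 44.7 CPM in the HTO3 populations and at 22.3 and 23.01 CPM in the HTO4 populations, a log2 ratio of 0.84 and a nearest ratio of 1.504 (1.01 to 2.22). The 3 HTO3 values lay above both HTO4 values, but with the highest cell of each population left out the nearest ratio was 1.32, and HTO4+HTO8 and HTO4+HTO9 reached 96.3 and 99.2 CPM. The 40 hypoxia genes summed to 8914, 7713 and 8575 CPM in the HTO3 populations and to 7348 and 7389 CPM in the HTO4 populations, a log2 ratio of 0.22, which was 0.029 with up to 50% mitochondrial UMIs allowed. Of 31 tested members, 28 had a log2 ratio above 0, and 8 (25.8%, against 10.2% of all genes) were higher in every HTO3 population. The 1 called member was ADM (against 0.0253% of all genes called higher).

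Most of the hypoxia difference lay in HTO3+HTO5 and HTO3+HTO9. NDRG1, a HIF target that responds strongly to low oxygen, was at 37.5, 11.05 and 36.5 CPM in the HTO3 populations and at 21.8 and 13.1 CPM in the HTO4 populations. LDHA, which makes lactate, was at 1302, 915 and 1137 CPM in the HTO3 populations and at 930 and 916 CPM in the HTO4 populations. HTO3+HTO7 was at or below the HTO4 populations for both genes, so their sides overlapped. CA9, a carbonic anhydrase with 69 UMIs and so below the minimum of 100, also overlapped, with 12.3, 3.68 and 16.4 CPM in the HTO3 populations and 7.42 and 3.43 CPM in the HTO4 populations. GAPDH, a glycolytic enzyme, was higher in all 3 HTO3 populations, at 3080, 2876 and 3067 CPM, than in the HTO4 populations, at 2605 and 2626 CPM, and its counting intervals were apart. DDIT4, an mTOR inhibitor induced by low oxygen, was at 188, 87.6 and 130 CPM in the HTO3 populations and at 75.6 and 71.1 CPM in the HTO4 populations.

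The long noncoding RNA AL713998.1 (chr6:67887646-67889339, minus strand) was the other gene called higher, at 36.8, 28.0 and 28.3 CPM in the HTO3 populations and at 16.7 and 15.5 CPM in the HTO4 populations. Its nearest ratio was 1.68 (1.03 to 2.72). It reached 28.2 CPM in HTO3+HTO6 and 28.3 CPM in HTO4+HTO8, so a high level was not limited to the 3 HTO3 populations.

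Cell cycle genes varied more within the HTO3 side than between the sides. Genes of the G2 and M phases summed to 1916, 3890 and 2509 CPM in the HTO3 populations and to 2531 and 2297 CPM in the HTO4 populations, and HTO3+HTO7 was the highest of all 13 populations. The log2 ratio of the sums was 0.056, and it was -0.13 without HTO3+HTO7. MKI67, a marker of dividing cells, was at 74.3, 174 and 120 CPM in the HTO3 populations and at 105 and 105 CPM in the HTO4 populations. TOP2A, the topoisomerase of mitosis, was at 144, 323 and 158 CPM in the HTO3 populations and at 185 and 206 CPM in the HTO4 populations. The HTO4 values lay inside the HTO3 range for MKI67 and TOP2A alike. Of 42 tested members, 3 (CDC20, UBE2C and PTTG1) were higher in every HTO3 population (7.14%, against 10.2% of all genes) and 0 were lower.

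In thinned cells the median was 2, 3 and 2 UMIs of G2 and M phase genes in the HTO3 populations and 2 in both HTO4 populations, while the 90th percentile was 11.4, 58.4 and 34.1 UMIs in the HTO3 populations and 28.3 and 32.1 UMIs in the HTO4 populations. The populations thus differed at the upper end of these values. S phase genes summed to 815, 1217 and 1088 CPM in the HTO3 populations and to 1223 and 1121 CPM in the HTO4 populations, and these sums overlapped. Histone genes that are expressed with DNA replication were lower, at 536, 624 and 466 CPM summed in the HTO3 populations and 728 and 790 CPM in the HTO4 populations, and 6 of 9 tested members (66.7%, against 15.2% of all genes) were lower and 1 (HIST1H2AG) was higher in every HTO3 population. In barcodes with over 20% to 50% mitochondrial UMIs the direction of the histone sum turned, with a log2 ratio of 0.077 against -0.50 in the kept cells. HIST1H1D, a linker histone, was at 68.1, 70.7 and 38.7 CPM in the HTO3 populations and at 102 and 106 CPM in the HTO4 populations, and in the barcodes of high mitochondrial share it was at 97.7, 30.1 and 31.7 CPM in the HTO3 populations and at 49.5 and 6.71 CPM in the HTO4 populations.

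**Figure D4:**
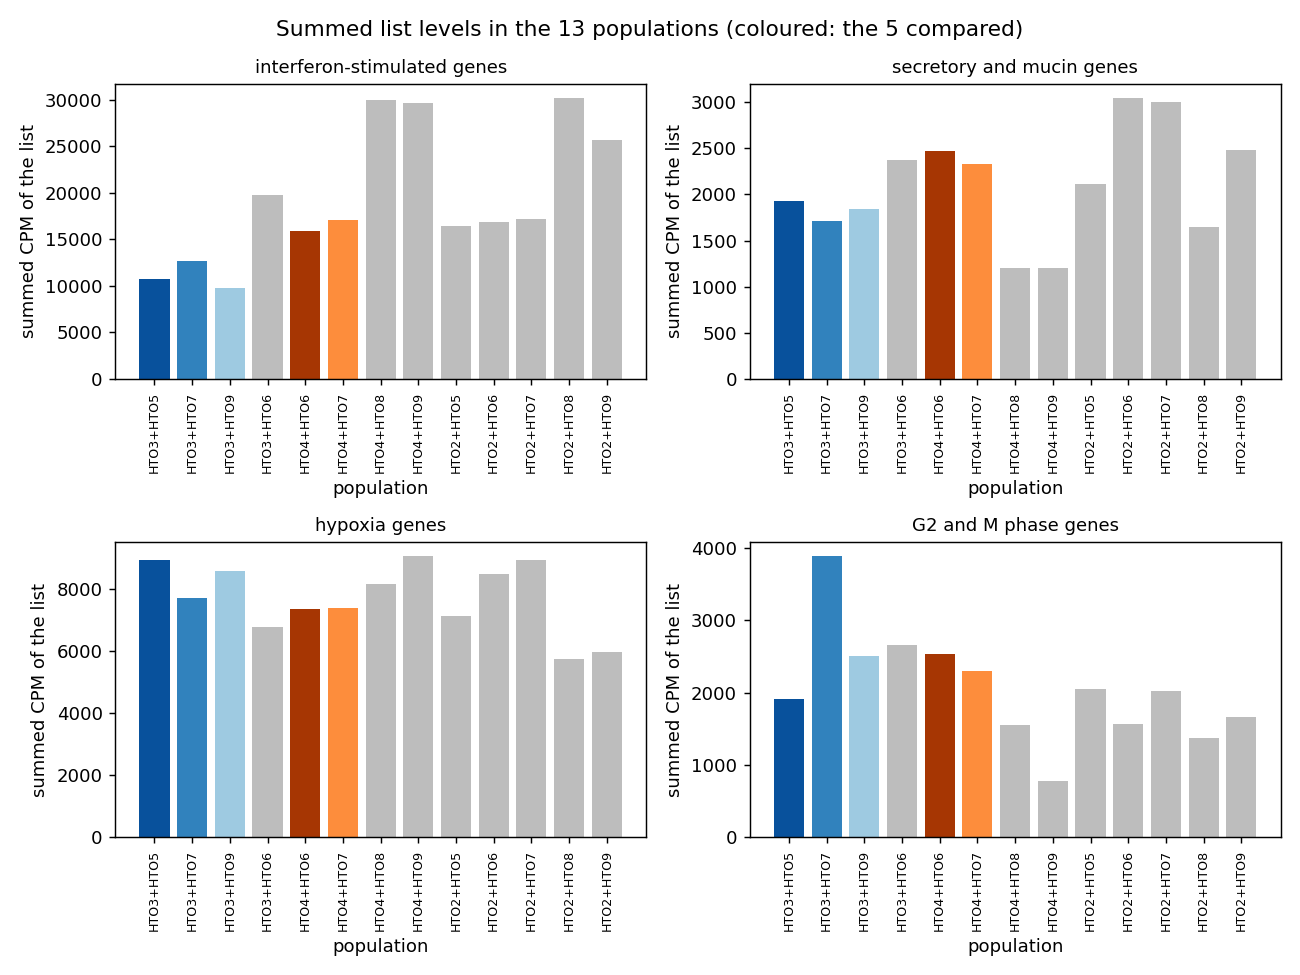
Summed CPM of 4 gene lists in the 13 populations of the library, with the 3 HTO3 populations (blue) and the 2 HTO4 populations (orange) in colour and the other 8 in grey. The 3 HTO3 populations have the 3 lowest ISG sums (9792 to 12672 CPM), and HTO3+HTO7 has the highest G2 and M phase sum (3890 CPM), while the secretory and hypoxia sums lie inside the range of the other 8.

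Ribosomal protein genes were higher in the HTO3 populations by a small and even amount. The 73 cytosolic ribosomal protein genes summed to 131852, 138598 and 131812 CPM in the HTO3 populations and to 123123 and 123780 CPM in the HTO4 populations, a log2 ratio of 0.09. Of the 73, 52 (71.2%, against 10.2% of all genes) were higher in every HTO3 population, and 14 of the 22 genes with counting intervals apart on the higher side (0.278% of all genes) came from this list. Counting intervals are narrow for abundant genes, so a small ratio can set these apart, while most genes have too few UMIs for that. RPL13, with 51336 UMIs and a nearest ratio of 1.11, was at 5968, 6053 and 6014 CPM in the HTO3 populations and at 5398 and 5360 CPM in the HTO4 populations. Many ribosomal protein genes have near-identical processed copies that can share reads. Mitochondrially encoded genes summed to 148739, 144400 and 145906 CPM in the HTO3 populations and to 142458 and 136488 CPM in the HTO4 populations, and the mitochondrial share is also what the cell filter used.

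Among the other genes with counting intervals apart, S100A4, S100A6 and S100A11 were lower and came from the S100 and metallothionein list. This list summed to 10991, 10636 and 11064 CPM in the HTO3 populations and to 11971 and 12241 CPM in the HTO4 populations. Of 12 tested members, 7 (58.3%, against 15.2% of all genes) were lower in every HTO3 population, 0 were higher and 0 were called. The next 4 genes, also with intervals apart, were in none of the gene lists. PLAT, the tissue plasminogen activator, was at 348, 265 and 269 CPM in the HTO3 populations and at 450 and 461 CPM in the HTO4 populations. ANXA1, the phospholipid-binding annexin A1, was at 885, 907 and 903 CPM in the HTO3 populations and at 1183 and 1279 CPM in the HTO4 populations. LMO4, a LIM-domain transcriptional regulator, was at 36.8, 53.02 and 29.05 CPM in the HTO3 populations and at 78.8 and 76.6 CPM in the HTO4 populations. All 3 were lower in the HTO3 populations, with nearest ratios of 1.29, 1.30 and 1.44. HSP90AA1, a cytosolic chaperone, was higher, at 2962, 3180 and 3383 CPM in the HTO3 populations and at 2609 and 2566 CPM in the HTO4 populations. PLAT, ANXA1, LMO4 and HSP90AA1 were picked after their values were seen. The unfolded protein response, cholesterol synthesis, stress, p53 and nuclear respiratory chain lists had log2 ratios of their sums between -0.08 and 0.04.

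The barcodes that the filter had left out for having over 20% and up to 50% mitochondrial UMIs gave a second look at the same tumours, with 202, 225 and 249 barcodes in the HTO3 populations and 137 and 141 in the HTO4 populations. In these barcodes, 14 of the 15 genes called lower had a log2 ratio below 0, and 10 of the 15 were lower in every HTO3 population, where 15.6% of the genes tested before were. The exception in direction was MYD88, with a log2 ratio of 0.09. Some of these directions rest on few counts, as KRT81 had 1 or 2 UMIs, TFF2 4 to 10 and HPGD 8 to 26 per population. The share of all tested genes with a ratio below 0 in these barcodes is not given here. Both genes called higher had a ratio above 0, but 0 of them were free of overlap. The ISG list had a log2 ratio of -0.66 and the secretory list one of -0.53, with 9030, 11774 and 8757 CPM of ISGs in the HTO3 populations and 12737 and 15888 CPM in the HTO4 populations. IFI6 was at 143, 263 and 110 CPM in these HTO3 barcodes and at 254 and 349 CPM in these HTO4 barcodes, so HTO3+HTO7 overlapped HTO4+HTO6. The ISG sums were apart between the sides among barcodes of high mitochondrial share too. These barcodes came from the same populations and library, so this is no independent repeat. G2 and M phase genes had a ratio of 0.76 there and hypoxia genes one of 0.14, and the sides overlapped for both sums. Hypoxia genes summed to 5279, 4201 and 5301 CPM in these HTO3 barcodes and to 5334 and 4279 CPM in these HTO4 barcodes. Ribosomal protein sums overlapped as well, with 92919 CPM in HTO3+HTO5 and 94291 CPM in HTO4+HTO6.

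**Figure D5:**
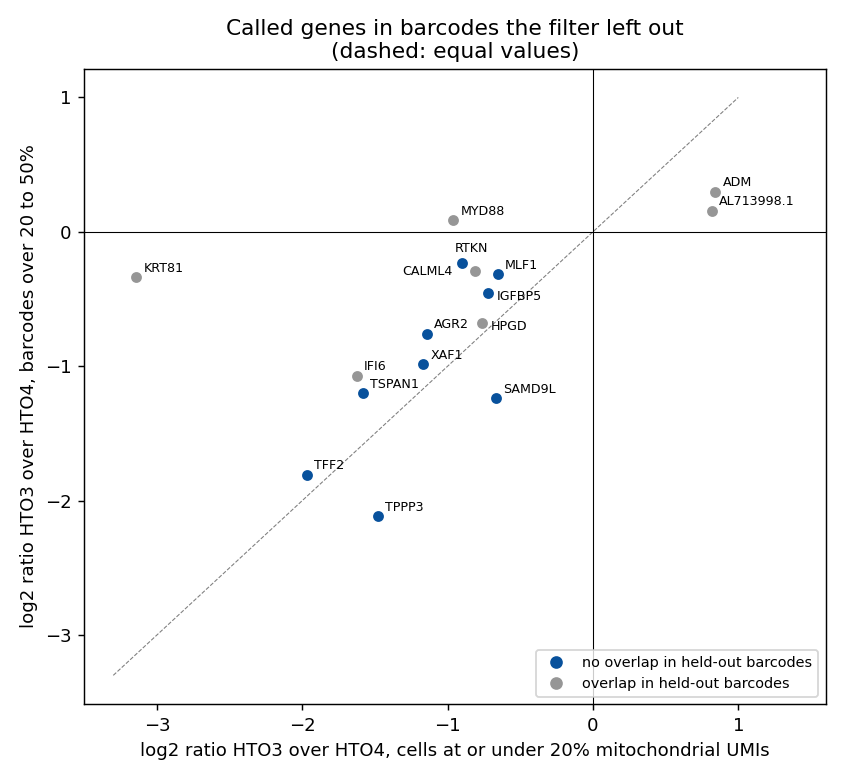
Log2 ratio of HTO3 over HTO4 of called genes in the cells kept by the filter (horizontal axis) and in barcodes with over 20% to 50% mitochondrial UMIs (vertical axis), with blue points for genes whose sides did not overlap in the latter. The genes called lower lie below 0 on both axes except MYD88, which lies at 0.09 on the vertical axis. KRT81, TFF2 and HPGD had few UMIs in the latter barcodes.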

How the data were processed

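Tumour cells were measured as 1 pooled droplet-based 3′ gene expression library with a hashtag library. The authors deposited whole-number UMI counts of 36601 genes and 10 hashtags, not normalised, and the file headers give Cell Ranger 5.0.1. Version 2.1.1 and the GRCh38 build stand in the submitters' processing notes instead, and no source used here gives the annotation. Of the gene IDs, 34616 matched GENCODE 29, which gave coordinates, and RARRES3 was read as PLAAT4. Promoters came from RefSeq (GRCh38.p14).

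Counts were summed per hashtag pair over the cells that passed the filter and divided by the population's total (CPM). Barcodes with a further hashtag near the second were left out by the pair rule; no other step removed doublets. A gene was called with at least 100 UMIs over the 5 populations and at least a 1.5-fold gap between the nearest populations. Intervals of levels are exact Poisson, of ratios exact conditional binomial, and of shares Clopper-Pearson, all at 95%. Log2 ratios of single genes and list sums used the medians of each side; medians over genes used CPM with 1 added. For shares and UMIs per cell, cells were thinned to 5345 UMIs. The populations, 21 gene lists (712 genes) and 8 marker lists were chosen with earlier results of these data known. Named genes were 20 fixed genes, up to 15 called genes per direction with the largest nearest ratio, and per list the 3 members with most UMIs and its called members with the 3 largest ratios; others are named as list members or as picked after their values were seen. A called gene is counted but not reported by name here. No p-value was computed, since 1 library gives no replicates. Alternatives covered the cell filter, the pair rule, thinning, scaling, populations left out, and the limits of the call. The scripts ran on Python 3.11.15 with pandas 2.3.3, scipy 1.17.1, matplotlib 3.10.9 and numpy 2.4.6.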

Additional observations from a re-analysis of the deposited data

Results flagged for a closer look

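Hashtags HTO10 and HTO1 took no part in the pair rule, and their counts in the cells of the 5 populations lie outside the main measurement. HTO10 had 1137 counts in these cells, above the 3 counts that a count of 0 allows. They were 6, 17 and 10 counts in HTO3+HTO5, HTO3+HTO7 and HTO3+HTO9 and 698 and 406 counts in HTO4+HTO6 and HTO4+HTO7. Most HTO10 counts were therefore in the HTO4 populations; among the other populations, HTO2+HTO6 had 809, HTO3+HTO6 417, HTO4+HTO8 405 and HTO4+HTO9 221 counts, and the rest had 14 to 66. HTO1 had 3 counts in the cells of the 5 populations, equal to that limit, with 0, 1 and 2 in the HTO3 populations and 0 in both HTO4 populations.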

How the results depend on the processing

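The direction of the ISG, secretory and hypoxia ratios was the same under every alternative run, and only the G2 and M phase ratio turned. In barcodes with over 20% to 50% mitochondrial UMIs the hypoxia ratio kept its direction while the hypoxia sums of the sides overlapped. The number of genes called higher was 0 under a stricter cell filter (1000 genes, 10% mitochondrial UMIs), 11 under a looser one (50%), 4 with the second hashtag at least 8 times the third, 13 as the mean of CPM per cell, 4 under median-of-ratios scaling, 28 and 0 with a minimum of 30 and 300 UMIs, 42 with a smaller nearest ratio and 0 with one of 2, and 22 by counting intervals alone. The number called lower was 9 under the stricter filter and 23 under the looser one, 67 and 9 with 30 and 300 UMIs, 92 with the smaller ratio and 3 with one of 2, and 33 by intervals. Similar counts did not mean the same genes: of the 2 and 15 genes called, 0 and 6 were called again with thinning (2 and 15 called), 0 and 9 with the stricter pair rule (4 and 15), 0 and 2 under the stricter filter, 1 and 7 under the looser one, 2 and 10 as the mean per cell and 2 and 13 under median-of-ratios scaling; the cause was not tested, and fewer genes were tested with thinning (5360) and the stricter pair rule (7397). The ISG ratio was -0.50 under the stricter filter, -0.68 under the looser one, -0.60 with thinning, -0.66 as the mean per cell and -0.58 under median-of-ratios scaling. The secretory ratio was -0.033 under the stricter filter, -0.50 under the looser one, -0.34 with the stricter pair rule, -0.28 with thinning, -0.23 as the mean per cell and -0.45 without the 5 cells with markers of other cell types. The hypoxia ratio was 0.26 under the stricter filter, 0.029 under the looser one, 0.18 with the stricter pair rule, 0.25 with thinning, 0.28 as the mean per cell and 0.28 as the median over members. The G2 and M phase ratio was 0.24 under the stricter filter and reversed to -0.32 under the looser one, -0.037 with thinning and -0.15 as the mean per cell; the cause was not tested. Leaving out each population in turn gave 3 to 19 genes higher and 24 to 61 lower, ISG ratios of -0.68 to -0.49, secretory ratios of -0.43 to -0.34, hypoxia ratios of 0.14 to 0.25 and G2 and M phase ratios of -0.13 to 0.41; the G2 and M phase ratio was -0.13 without HTO3+HTO7 and -0.013 without HTO4+HTO7. With a population left out, fewer populations have to be apart for a call. A pair of alternatives was chosen after seeing the data. In barcodes with 20 to 50% mitochondrial UMIs, 10 genes were called higher and 14 lower, of which 0 and 1 (TSPAN1) had been called in the kept cells, and the ratios were -0.66 (ISG), -0.53 (secretory), 0.14 (hypoxia) and 0.76 (G2 and M phase). With the highest cell of each gene left out in each population, 1 gene was called higher and 24 lower, of which 1 and 13 were the same genes, and the ratios were -0.64 (ISG), 0.19 (hypoxia) and -0.016 (G2 and M phase). No paired analysis was possible because hashtag populations carry no replicate numbers and come from 1 library. The populations' conditions are not known here, so exposure and tumour of origin cannot be told apart.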
